A study of Mus musculus with 3 samples.

Results

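The genes described here are 36 mouse genes of base excision repair, mismatch repair, recombination and end joining, chosen as a list of gene names together with the replication protein A subunits, translesion polymerases and damage kinases that work with them. They were looked up by the gene name given in the scanner files, older names included. Of the 36, 35 had at least 1 probe among the 27699 named genes of the array design, on 65 probes in all, and Atr, a kinase that answers to stalled replication, matched no probe by that rule. Of the members with a probe, 13 were read by 1 probe and 22 by more, with at most 4.

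RNA of tumours from mice transgenic for the enzyme activation-induced cytidine deaminase (AID Tg) was set against tumour-free tissue on 2-colour Agilent mouse arrays, 1 array per organ. The liver pair was a liver cancer and the nontumour liver of the AID Tg mouse that developed it. The stomach pair was a gastric cancer and the nontumour stomach of the AID Tg mouse that developed it, so in both organs the transgene was carried by tumour and comparison tissue alike. The lung pair was a lung cancer of an AID Tg mouse and normal lung of a wild-type (Wt) mouse, so there the tissues also differed in genotype and came from different animals. The labels used here give neither the promoter of the transgene nor the strain, age or sex of the mice, and name no pooling. Scanner values were analysed for liver and stomach, and for lung only the authors' deposited lists of higher and lower genes were used, which begin at about 2-fold. With 1 array per organ, no replicate and no exchange of dyes, no difference below was tested, no p-value is given, and genes are counted by the size of their ratio.

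Ratios are given by dye, as log2(Cy5/Cy3), because the sources disagree on which dye held the tumour. The sample labels place the tumour in Cy3 and the comparison tissue in Cy5, whereas the authors' deposited lists put spots brighter in Cy5 under the heading for genes higher in the tumour. Those headings, and the series' design text that refers to them, make Cy5 the likely channel of the tumour. The values themselves do not depend on this, but read as tumour over comparison tissue they would change sign under the dye labels. Genes are therefore called Cy5-high or Cy3-high. The error given with a gene is the standard deviation (SD) between its probes, or the scanner's own error of the log2 ratio where a single probe was measured, and covers measurement only. The scanner's error belongs to the scanner software's own ratio, which for dim probes is larger than the ratio after normexp and loess, since the background offset shrinks it. Whether a ratio exceeded that error was therefore judged only with the scanner software's ratio. A scanner error printed beside a ratio after normexp and loess gives the size of the error and is no such comparison. The SD between probes can be smaller than the scanner errors of the same probes. Repeated spots of a probe had a median SD of 0.05 in liver and 0.06 in stomach (40 probes each). Different probes of the same gene had a pooled SD of 0.18 in liver and 0.26 in stomach, and for the members it was 0.17 (21 genes) and 0.19 (19 genes). Of the gene spots, 84.1% in Cy3 and 90.0% in Cy5 were well above background on the liver array, against 82.3% and 88.8% on the stomach array.

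AID removes the amino group from cytosine in DNA and leaves uracil, which pairs like thymine. Uracil glycosylases cut out the base, an endonuclease opens the strand, and a polymerase and a ligase fill and close it; mismatch proteins can instead recognise the uracil-guanine pair and have a longer stretch removed. Breaks left by either route are rejoined by homologous recombination or end joining, and some lesions are copied by translesion polymerases, which make errors. In B cells these same pathways turn AID lesions into antibody diversity; outside B cells AID is normally little expressed. Probe coordinates are as the files print them, on a build the sources used here do not name.

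The stretches before the start sites of 4 members are shown. Rpa1 and Rpa3 were the most Cy5-high members in stomach, and Tdg was the member listed as higher in both stomach and lung. Brca2 was chosen for its letters of the E2F type and not for its ratio. Each is the 250 bases before the annotated start, 5′ to 3′ in the direction of transcription, from RefSeq on GRCm38.p6. They lie at chr11:75348384-75348633 on the minus strand (Rpa1), chr6:8259142-8259391 on the minus strand (Rpa3), chr10:82629588-82629837 on the plus strand (Tdg) and chr5:150522371-150522620 on the plus strand (Brca2). Capitals mark CCAAT (the letters of the CCAAT box), GGGCGG (the GC box) and the 4 E2F-type motifs TTTCCCGC, TTTCGCGC, TTTGCCGC and TTTGGCGC, each searched on both strands.
Rpa1: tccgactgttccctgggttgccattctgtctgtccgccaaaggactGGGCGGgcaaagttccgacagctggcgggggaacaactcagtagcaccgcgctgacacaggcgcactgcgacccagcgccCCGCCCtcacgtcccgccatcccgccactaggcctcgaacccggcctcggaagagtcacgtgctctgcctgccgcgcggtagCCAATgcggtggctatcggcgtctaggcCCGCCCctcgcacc
Rpa3: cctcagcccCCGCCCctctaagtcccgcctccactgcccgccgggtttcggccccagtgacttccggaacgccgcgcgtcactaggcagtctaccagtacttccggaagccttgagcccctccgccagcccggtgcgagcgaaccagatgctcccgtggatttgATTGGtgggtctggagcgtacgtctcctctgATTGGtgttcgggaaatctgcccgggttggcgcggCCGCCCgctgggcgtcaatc
Tdg: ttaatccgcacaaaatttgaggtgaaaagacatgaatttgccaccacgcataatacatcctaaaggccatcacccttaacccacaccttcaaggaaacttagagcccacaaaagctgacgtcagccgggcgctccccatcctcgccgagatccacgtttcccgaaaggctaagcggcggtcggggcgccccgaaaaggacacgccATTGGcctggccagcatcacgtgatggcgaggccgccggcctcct
Brca2: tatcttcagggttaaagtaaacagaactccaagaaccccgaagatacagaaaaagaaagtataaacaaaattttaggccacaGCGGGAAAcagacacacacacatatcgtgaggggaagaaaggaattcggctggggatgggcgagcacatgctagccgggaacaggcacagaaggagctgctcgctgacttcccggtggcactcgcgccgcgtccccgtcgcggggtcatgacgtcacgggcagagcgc
Rpa1 holds 1 CCAAT and 3 GC boxes, Rpa3 holds 2 CCAAT and 2 GC boxes, Tdg holds 1 CCAAT, and Brca2 holds 1 E2F-type motif. RefSeq windows were found for 33 of the 36 members, 36 windows in all, with none for Polb, Neil2 and Exo1. The E2F-type letters stood in 4 of the 36 windows (11.1%), those of Brca2, Msh3, Nthl1 and Xrcc6, against 1.86% of all 32851 windows. The stomach ratios of these 4 genes were 0.56, 0.09, 0.01 and 0.22 in that order. CCAAT stood in 21 of the 36 (58.3%, against 33.8%) and GGGCGG in 20 (55.6%, against 32.7%), and the median window held 18 CpG dinucleotides among members and 6 among all genes. A match describes the letters only and is no evidence of a bound site.

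In liver the repair genes lay close to equal brightness in both channels. All 35 members with a probe were measured, beside 25626 genes in all. None of the 35 was at least 1.5-fold Cy5-high, against 0.855% of all genes, and none at least 1.5-fold Cy3-high, against 0.507%. None reached 2-fold, against 0.222% of all genes in either direction. The members' median log2 ratio was -0.04, with 17 of 35 (48.6%) above 0, beside 0.01 and 52.8% over all genes. Their range ran from -0.32 (Rpa1) to 0.33 (Rev1). Taken as the scanner software gives them, the ratios of 2 of 35 members (5.71%) were larger than the mean scanner error of their probes, Rpa1 (-0.48, error 0.41) and Rev1 (0.50, error 0.36), against 11.7% of all genes. With the scanner software's own ratios, 2 members were at least 1.5-fold Cy5-high (Neil3 and Mlh3) and 1 Cy3-high (Brca2). The shares of all genes by the same ratios were 6.79% and 4.81%. With a smaller background offset of 10, 1 member was Cy5-high (Mlh3), beside 3.15%. Neil3 and Mlh3 had probes that passed the filter only through Cy5, so their direction carries no weight. Mean scanner errors were 2.74 for Neil3, 2.56 for Mlh3 and 2.10 for Brca2.

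In stomach most of the repair genes lay to the Cy5 side, by small amounts. The median of the 35 members was 0.18, with 29 (82.9%) above 0, beside 0.00 and 50.2% over the 25341 genes measured. The 29 include Neil2, whose only stomach probe passed the filter through Cy5 alone, so its side carries no weight. Probes of Msh3, Polh, Atm and Chek1 also passed through Cy5 alone. With both channels required to be well above background, 28 of 34 members lay above 0. Rpa1 and Rpa3, subunits of the protein that coats single-stranded DNA, were the members at least 1.5-fold Cy5-high, 2 of 35 (5.71%) against 3.23% of all genes. No member was at least 1.5-fold Cy3-high, against 3.30% of all genes, and none reached 2-fold, against 2.29%. The scanner software's ratio was larger than the mean scanner error for 10 of 35 members (28.6%), which were Ung, Tdg, Xrcc1, Mpg, Msh6, Exo1, Rpa1, Rpa3, Brca2 and Xrcc5, against 19.4% of all genes. It was larger than 2 errors for Rpa1, Rpa3 and Msh6 (8.57%, against 9.21%). Counts at 1.5-fold moved with the processing: 6 members with the smaller offset (6.55% of all genes), 9 with the scanner software's ratios (11.4%) and 8 with centring on the median in place of loess (12.3%), with Rpa1 and Rpa3 among them each time. The last setting also turned the split over all genes from 818 Cy5-high and 835 Cy3-high to 3119 and 1058.

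**Figure D1:**
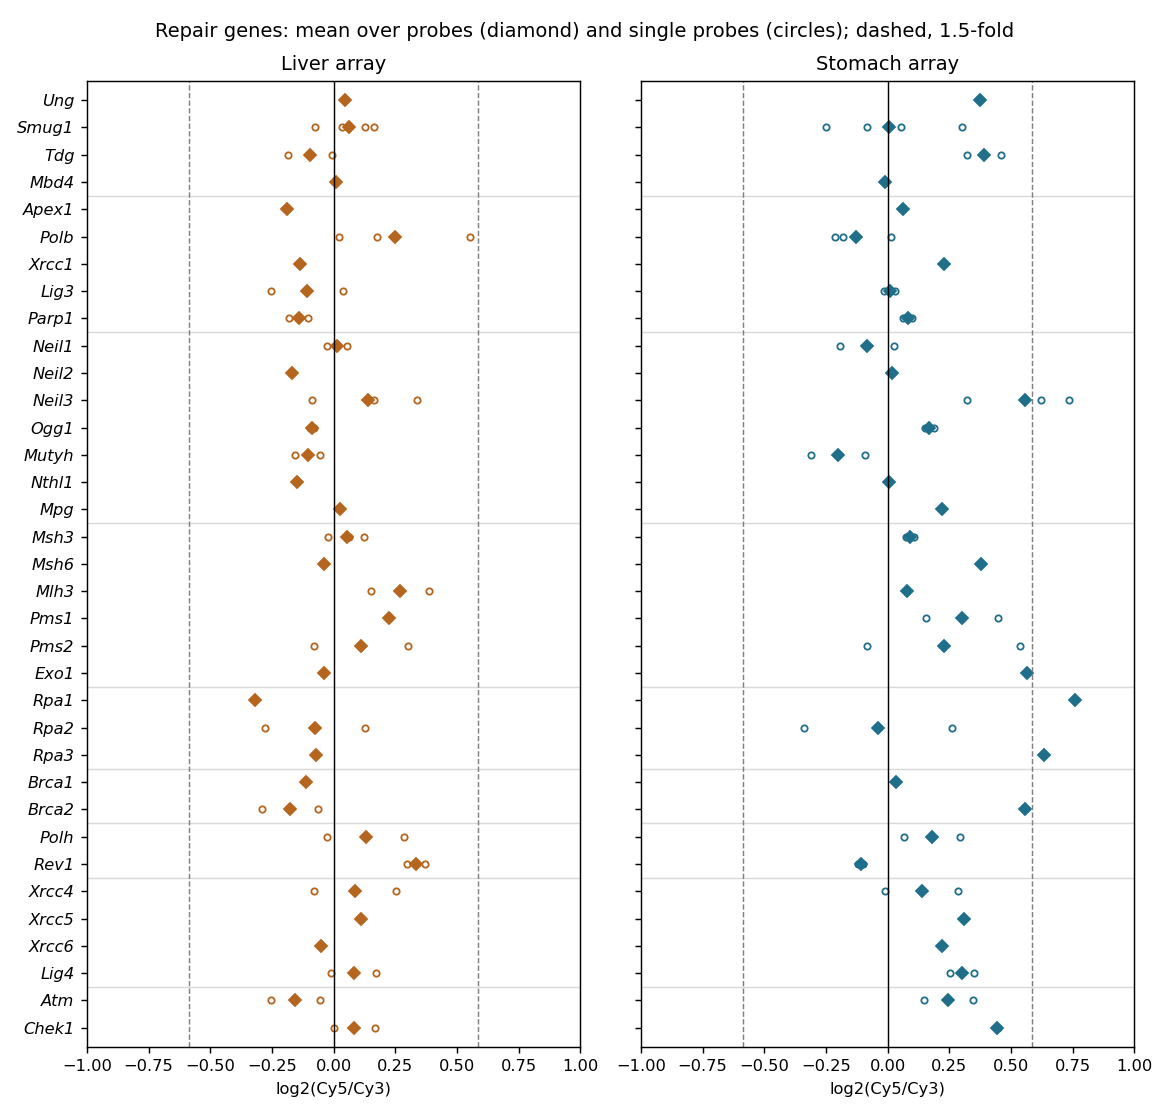
Log2(Cy5/Cy3) of the 35 measured repair genes on the liver array (left) and the stomach array (right); the diamond is the mean over a gene's probes, circles are single probes of genes with several, dashed lines mark 1.5-fold, and grey lines separate the roles. In liver all diamonds lie within the dashed lines, from -0.32 to 0.33, and in stomach Rpa1 (0.76) and Rpa3 (0.64) lie beyond them.

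In the stomach pair, cell cycle genes lay further to the Cy5 side than the repair genes, and markers of gastric glands, squamous epithelium and smooth muscle lay far to the Cy3 side. Of 29 genes of the cell cycle, all 29 lay above 0 on the stomach array (median 0.84, range 0.01 to 1.53), 24 by at least 1.5-fold and 10 by at least 2-fold, and their summed signal was 10206 in Cy3 and 19886 in Cy5. The summed signal of the repair genes was 6339 in Cy3 and 7427.5 in Cy5. The 3 highest were Mki67, a nuclear protein of cycling cells (1.53), the spindle factor Tpx2 (1.52) and the helicase subunit Mcm4 (1.39). Markers of gastric glands had a median of -3.50 with 8 of 11 at least 1.5-fold Cy3-high (summed signal at least 511636 in Cy3 and 145178 in Cy5, since Tff1, Tff2 and Gkn2 were saturated in Cy5 and a probe of Chia1 in Cy3), those of squamous epithelium -1.62 with 8 of 10 (33893 and 4773), and those of smooth muscle -1.82 with 6 of 8 (20864 and 6185). Markers of B cells had a median of 0.00 (2031 and 1831), of T cells 0.12 (1108 and 1166), of macrophages and neutrophils 0.06 (2463 and 2338), and of endothelium -0.08 (1606 and 1348). The macrophage and neutrophil markers did not move together. Lyz2 was at least 1.5-fold Cy5-high (1.18, SD 0.93 between 2 probes), and S100a9 (-1.93) and S100a8 (-0.83) were at least 1.5-fold Cy3-high. The part of the cell cycle genes and of these cell types in the repair genes' ratios was not tested. In bulk tissue, fewer cells of a type and less RNA per cell cannot be told apart. On the liver array the cell cycle genes had a median of 0.03, with 17 of 29 above 0 and none at least 1.5-fold in either direction. Hepatocyte markers were bright in both liver channels (Alb and Fgb saturated in both; 9 others measured, summed signal 130093 in Cy3 and 101176 in Cy5, median -0.28). S100a9 (0.87) and S100a8 (0.80) were at least 1.5-fold Cy5-high in liver.

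**Figure D2:**
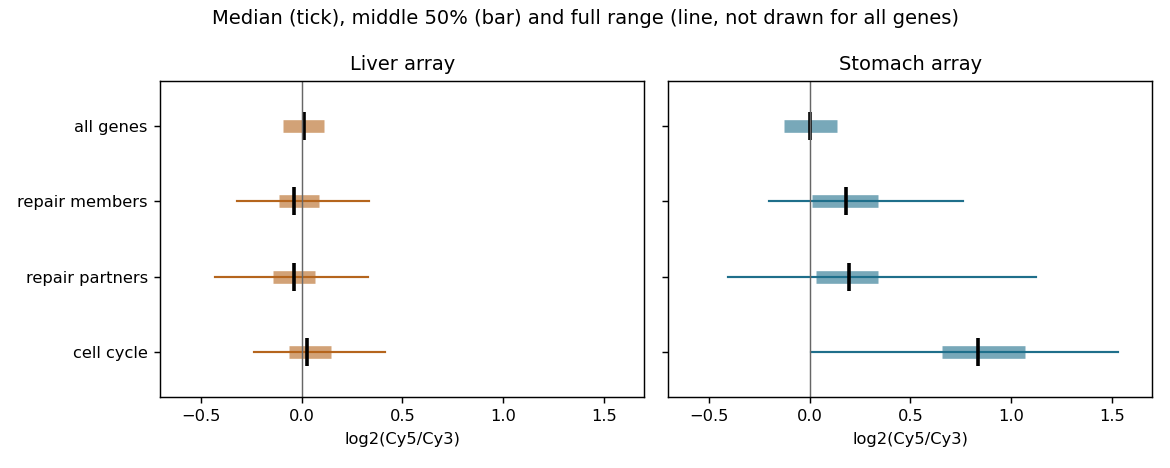
Median (tick), middle 50% (bar) and full range (line, not drawn for all genes) of log2(Cy5/Cy3) for all genes, the repair genes, their partner genes and the cell cycle genes on the liver and stomach arrays. In stomach the medians are 0.00, 0.18, 0.19 and 0.84 in that order, and in liver they lie between -0.04 and 0.03.

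The glycosylases that remove uracil or a thymine mispaired with guanine were near 0 in liver (median of 4, 0.03) and split in stomach (median 0.19). Ung, the main enzyme that removes uracil made by AID, was read by 1 probe on chromosome 5 at 113361050 to 113361109. Its signal was 8.39 in Cy3 and 8.44 in Cy5 of the liver array, and 7.99 and 8.36 on the stomach array. The channels were within 0.05 of each other in liver (scanner error 0.22), while in stomach Cy5 was 1.29-fold brighter (log2 ratio 0.37, scanner error 0.25). Tdg, which removes thymine or uracil opposite guanine and also acts in DNA demethylation, had 2 probes. The probe NM_172552 ( chromosome 10 at 82191750 to 82191809) read 8.90 and 8.89 in Cy3 and Cy5 of liver, and 9.08 and 9.54 in stomach. The other, NM_011561 (chromosome 10 at 41863869 to 41863928) read 7.05 and 6.87 in liver, and 7.12 and 7.44 in stomach. Both were Cy5-high in stomach, and the gene's ratio was 0.39 (1.31-fold, SD 0.10 between 2 probes) against -0.10 in liver (SD 0.13). The files place these probes at separate positions of the chromosome, so that a near-identical copy may share the signal and the gene's value is uncertain. In the authors' deposited table, Tdg was among the genes higher in stomach, by NM_172552 alone (log2 ratio 0.49, 1.40-fold).

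Smug1, a second uracil glycosylase, had 4 probes that disagreed: its stomach ratio averaged 0.01 (SD 0.23), with single probes from -0.25 (AK090367) to 0.30 (NM_027885), and its liver ratio averaged 0.06 (SD 0.11). Mbd4, which binds methylated DNA and removes thymine from the mispairs that deamination leaves there, was dim. Its 1 probe read 6.29 in Cy3 and 6.30 in Cy5 of liver, and 6.45 and 6.44 in stomach, and its ratios were 0.01 and -0.01. The scanner errors of 1.93 and 1.56 exceed a 2-fold difference, so none of that size was detectable for Mbd4 on these arrays.

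The enzymes that complete base excision repair had a median of -0.14 in liver, with 1 of 5 above 0, and 0.06 in stomach, with 4 of 5 above 0. Xrcc1, the scaffold that holds polymerase and ligase at the gap, read 8.65 in Cy3 and 8.51 in Cy5 of liver, and 8.88 and 9.11 in stomach. It lay to the Cy3 side in liver (-0.14, scanner error 0.21) and to the Cy5 side in stomach (0.23, scanner error 0.19). Apex1, the endonuclease that cuts the strand at the emptied site, had ratios of -0.19 in liver (scanner error 0.26) and 0.06 in stomach (scanner error 0.23). Lig3, the ligase that partners Xrcc1, had -0.11 in liver (SD 0.21) and 0.01 in stomach (SD 0.03 between 2 probes). The mean scanner errors of Lig3 were 0.68 and 0.74. Parp1, a sensor of nicks, had -0.14 in liver (SD 0.05) and 0.08 in stomach (SD 0.03). Its 2 probes overlap, and their mean scanner errors were 0.82 and 0.69, so the signs carry little weight.

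Polb, the polymerase that fills the gap, ran the other way, 0.25 in liver (SD 0.27 between 3 probes) and -0.13 in stomach (SD 0.12). Its RefSeq probe (NM_011130) was nearly equal in both channels of each array, at 8.52 in Cy5 of liver (ratio 0.02) and 7.66 and 7.67 in Cy3 and Cy5 of stomach. The liver value came mainly from probe BC006681, at 6.85 and 7.41 (ratio 0.55), so probes of the gene disagreed.

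Among glycosylases for oxidised or alkylated bases, Neil3 had the highest ratio in stomach. Neil3, which acts on oxidised bases and on crosslinks met at replication forks, had 3 dim probes. In stomach they read 6.32 in Cy3 and 7.05 in Cy5 (NM_146208), 6.14 and 6.46 (AK031027), and 6.24 and 6.87 (AK042059). All 3 were Cy5-high there, with a mean of 0.56 (1.47-fold, SD 0.21), while the scanner software's ratios averaged 1.38 with a mean scanner error of 1.41. With both channels required to be well above background, the liver value became -0.09, from 1 probe. In liver the gene's ratio was 0.14 (SD 0.22), and its probes did not share a sign. The other 6 of this role lay between -0.20 and 0.22 in stomach and between -0.17 and 0.03 in liver. Mpg, which removes alkylated purines, had the highest of these in stomach (0.22). The scanner software gives it 0.30 there, with a scanner error of 0.23. Mutyh, which removes adenine placed opposite oxidised guanine, had the lowest in stomach (-0.20, SD 0.16 between 2 probes). Ogg1, which removes oxidised guanine, read alike on its 2 probes, -0.09 in liver (SD 0.01) and 0.17 in stomach (SD 0.03). Those probes overlap, and their mean scanner errors were 0.48 and 0.38. Nthl1 and Neil2, which act on oxidised pyrimidines, were at -0.15 and -0.17 in liver and 0.01 and 0.02 in stomach, with scanner errors from 0.77 to 2.62. The probe of Neil2 was well above background in Cy5 only on the stomach array. Neil1, a relative of Neil2, was at 0.01 in liver and -0.08 in stomach (SD 0.06 and 0.15 between 2 probes).

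After normexp and loess the 6 mismatch repair genes all lay above 0 in stomach (median 0.26), and 4 of 6 did in liver (median 0.08). The stomach sign of Mlh3 turned with the processing. Msh6, part of a complex that recognises single mismatches including uracil opposite guanine, was read by 1 probe. It read 8.34 in Cy3 and 8.30 in Cy5 of liver, and 8.97 and 9.35 in stomach. The channels were alike in liver (-0.04, scanner error 0.23), and Cy5 was 1.30-fold brighter in stomach (0.38, scanner error 0.19). Exo1, the exonuclease that removes the stretch around a mismatch, was dim, at 6.25 and 6.21 in liver and 6.62 and 7.18 in stomach. Its stomach ratio was 0.56 (1.48-fold) after normexp and loess and 1.18 as the scanner software gives it, with a scanner error of 0.77. Its liver ratio was -0.04 (scanner error 2.07). Msh3, which recognises small loops, had 0.05 in liver and 0.09 in stomach on 3 measured probes of 4 (SD 0.07 and 0.02). The mean scanner errors of Msh3 were 1.64 and 0.97, and 1 of its measured probes was well above background in Cy5 only on both arrays. The MutL homologues Pms1, Pms2 and Mlh3 had 0.22, 0.11 and 0.27 in liver and 0.30, 0.23 and 0.08 in stomach. In liver Mlh3 had a mean scanner error of 2.56 and a probe well above background in Cy5 only. Without that probe its liver ratio was 0.15. In stomach Mlh3 had 1 measured probe, with a scanner error of 1.21. Its stomach ratio was -0.06 as the scanner software gives it and -0.11 with centring on the median. The mean scanner errors of Pms1 were 1.33 in liver and 1.36 in stomach. The 2 probes of Pms2, an endonuclease that nicks the strand, gave opposite signs on both arrays (-0.08 and 0.30 in liver, -0.08 and 0.54 in stomach), so the mean says little about that gene.

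Replication protein A, the trimer that coats and protects single-stranded DNA in replication, excision and recombination, held the highest members in stomach. Rpa1, its large subunit, was read by 1 probe on chromosome 11 at 75382132 to 75382191. The probe read 7.56 in Cy3 and 7.23 in Cy5 of liver, and 7.83 and 8.59 in stomach. Cy5 was 1.69-fold brighter in stomach (log2 ratio 0.76, scanner error 0.25, percentile 98.2 of all genes). In liver Cy3 was 1.25-fold brighter (-0.32, percentile 3.91), the lowest ratio among the members there. The scanner software gives -0.48 in liver, with a scanner error of 0.41. Rpa3, the small subunit, was read by 1 probe on chromosome 6 within 8214464 to 8214970, at 7.35 and 7.28 in liver and 7.78 and 8.42 in stomach. It was near equal in liver (-0.07, scanner error 0.45) and 1.55-fold brighter in Cy5 of stomach (0.64, scanner error 0.27, percentile 97.3). In the authors' deposited table both were among the genes higher in stomach, Rpa1 at 0.91 (1.88-fold) and Rpa3 at 0.83 (1.78-fold), larger than after normexp and loess. Across the 7 alternative settings the stomach ratio ran from 0.76 to 1.14 for Rpa1 and from 0.64 to 0.99 for Rpa3.

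Rpa2, the middle subunit, did not go with them. In stomach its probe NM_011284 read 7.62 in Cy3 and 7.28 in Cy5, Cy3-high by -0.34, and its probe D00812 read 6.44 and 6.70, Cy5-high by 0.26. In liver the signs were the other way, 0.13 and -0.28. The gene's means of -0.08 in liver (SD 0.28) and -0.04 in stomach (SD 0.42) therefore average probes that disagree.

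**Figure D3:**
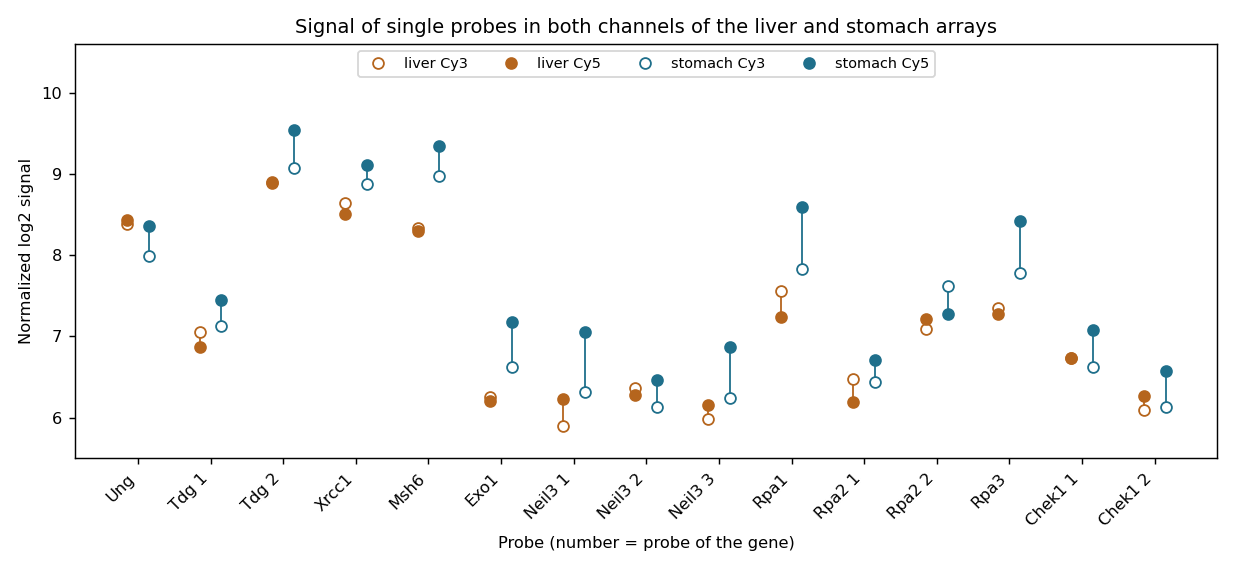
Normalized log2 signal of single probes in Cy3 (open) and Cy5 (filled) of the liver array and the stomach array, with a line joining the channels of an array; numbers after a gene name count its probes. Rpa1 and Rpa3 are brighter in Cy5 of stomach by 0.76 and 0.64, the 2 probes of Rpa2 run in opposite directions, and liver channels lie close together.

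The genes of break repair were spread around 0 in liver and lay above 0 in stomach. Brca1 and Brca2, which act early in homologous recombination, differed in how well they were measured. Brca1 had 1 measured probe of 2, at 8.94 in Cy3 and 8.82 in Cy5 of liver and 8.73 and 8.76 in stomach, and its ratios were -0.11 (scanner error 0.19) and 0.03 (scanner error 0.20). Brca2 was dim, with 1 measured probe in stomach at 6.53 and 7.09, with a ratio of 0.56 (1.47-fold) after normexp and loess and 1.44 as the scanner software gives it (scanner error 0.93). In liver its 2 probes gave -0.18 (SD 0.16).

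In end joining, Xrcc5 and Xrcc6 form the Ku ring that binds broken ends, and Xrcc4 with Lig4 seals them. All 4 lay above 0 in stomach (median 0.26, range 0.14 to 0.31) and 3 of 4 in liver (median 0.08). Xrcc5 read 8.30 in Cy3 and 8.42 in Cy5 of liver, and 8.20 and 8.51 in stomach, a stomach ratio of 0.31 (scanner error 0.23) beside 0.11 in liver. Lig4 had 0.30 in stomach (SD 0.07 between 2 probes) and 0.08 in liver (SD 0.13). The mean scanner errors of Lig4 were 0.92 in stomach and 1.04 in liver. Xrcc4 had 0.14 and 0.09 on 2 measured probes of 3, and Xrcc6 0.22 and -0.05 with scanner errors of 0.92 and 1.53.

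The translesion polymerases had a higher median in liver (0.23) than in stomach (0.04), whereas the medians of the other 8 roles were higher in stomach. Rev1, which inserts cytosine opposite missing bases and recruits other translesion polymerases, had 2 probes, which carry the older name Rev1l in the files. They read 7.76 and 7.23 in Cy3 and 8.06 and 7.60 in Cy5 of liver, and 7.70 and 7.49 in Cy3 and 7.58 and 7.39 in Cy5 of stomach. Both were Cy5-high in liver (mean 0.33, 1.26-fold, SD 0.05, percentile 96.1 of all genes) and Cy3-high in stomach (-0.11, SD 0.01). Polh, which copies past ultraviolet damage and makes mutations at A and T in antibody genes, had 0.13 in liver (SD 0.22) and 0.18 in stomach (SD 0.16). One of its 2 probes was not well above background in Cy3 of either array, and without it the ratios were -0.03 and 0.07, so the liver sign rests on that probe.

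Of the damage kinases, Chek1, which halts the cycle when replication stalls, read 6.63 and 6.13 in Cy3 and 7.07 and 6.57 in Cy5 of stomach. Its stomach ratio was 0.45 (1.36-fold) and its liver ratio 0.08 (SD 0.12). One of its 2 probes was not well above background in Cy3 of stomach, so the likeness of its ratio to the other's carries no weight; the scanner software's ratios averaged 1.06 with a mean scanner error of 1.26. Atm, the kinase that answers to breaks, had 0.25 in stomach (SD 0.14 between 2 probes) and -0.16 in liver (SD 0.14). The mean scanner errors of Atm were 1.30 in stomach and 1.84 in liver. A probe of Atm was not well above background in Cy3 of stomach.

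Liver and stomach ratios of the members did not run together. Over the 35 members Pearson's r was -0.21 and Spearman's rho -0.05, beside 0.10 and 0.21 over all genes measured on both arrays. These values describe genes, which are not independent, on 2 arrays of the same design and dye layout. The ratio was higher in stomach than in liver for 28 of 35 (80.0%), against 48.9% of the 24784 genes measured on both arrays. Both ratios lay above 0 for 13 members and both below 0 for 2. Another 16 lay below 0 in liver and above 0 in stomach, and 4 the other way. The 16 include Neil2, whose stomach probe passed the filter through Cy5 alone. Opposite signs were thus seen for 20 members (57.1%), against 41.1% of all genes. With the scanner software's ratios, 6 of 35 members (17.1%) had opposite signs and a difference larger than the combined scanner error, against 10.9% of all genes. These were Tdg, Xrcc1, Msh6, Rpa1, Rpa3 and Rev1. Only Rpa1 among them had a ratio larger than its own scanner error on both arrays.

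Partner genes of these pathways were described from a list of 59, of which 58 had a probe. In liver 54 were measured, with a median of -0.04, 24 above 0 and none at least 1.5-fold in either direction. Over all genes 0.855% were Cy5-high and 0.507% Cy3-high by that much there. In stomach 58 were measured, with a median of 0.19 and 47 (81.0%) above 0, against 50.2% of all genes. Of the 58, 5 were at least 1.5-fold to the Cy5 side, against 3.23% of all genes, and none to the Cy3 side, against 3.30%. The highest in stomach were Pcna, the sliding clamp of replication and repair (1.12, 2.17-fold, scanner error 0.19), the clamp loader subunit Rfc5 (0.86), Usp1, which removes ubiquitin from Pcna and Fancd2 (0.78), and the polymerase delta subunit Pold1 (0.69). The lowest were Rbbp8, which starts the resection of broken ends (-0.40), the helicase Blm (-0.39), Trp53bp1, which limits resection (-0.14), and Bard1, the partner of Brca1 (-0.11). The scanner error of Bard1 was 4.65, so its place carries no weight. In liver the highest were Rbbp8 (0.33), Prkdc (0.22), Fancd2 (0.18) and Rad17 (0.14), and the lowest Mad2l2 (-0.43), Rfc1 (-0.33), Rfc2 (-0.28) and Usp1 (-0.25). Prkdc had a scanner error of 2.44 there. Rbbp8 was thus highest in liver and lowest in stomach, with SDs of 0.57 and 0.24 between 2 probes.

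In the lung pair, the authors' deposited lists held 1 member as higher (Cy5-high) and 5 as lower (Cy3-high). Tdg was listed as higher, 1 of 35 members (2.86%) against 6.83% of all named genes, or 2 of 65 member spots (3.08%) against 5.51% of all spots. Smug1, Mbd4, Polb, Rpa2 and Rev1 were listed as lower, 5 of 35 (14.3%) against 12.4% of genes, or 5 of 65 spots (7.69%) against 9.78% of spots. By either measure the members' shares of the lower list were near those of all genes. The authors' lists for liver and stomach begin lower, at about 1.35-fold, so their counts are not on the scale of the lung lists. They held no member for liver, against 1.75% of genes listed as higher and 1.36% as lower. For stomach they held 3 as higher (8.57%, against 5.17%), which were Tdg, Rpa1 and Rpa3, and none as lower, against 4.31%. Each of these stomach members was listed at less than 2-fold, where the lung lists begin. A member outside the lung lists had no lung value here, and its level is unknown rather than unchanged.

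Both probes of Tdg were in the lung list of higher spots, with log2(Cy5/Cy3) of 1.22 (NM_011561, 2.33-fold) and 1.21 (NM_172552, 2.31-fold) in the authors' deposited table. Both spots thus gave nearly the same ratio. Tdg was the only member in the authors' lists of more than 1 organ, and the limit named above for its probes holds here too. Its listed stomach value of 1.40-fold lies below the limit of the lung lists.

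Of the 5 genes listed as lower in lung, the listed spot was often 1 of several. In the authors' deposited table Mbd4 was listed by its only probe, at -1.59 (3.02-fold). That probe was dim on the liver and stomach arrays, and its brightness and error in lung were not examined here. Rev1 was listed by 1 of 2 probes at -1.02 (2.03-fold), close to the lists' limit. Rpa2 was listed by NM_011284, 1 of 2 probes, at -1.36 (2.57-fold), the probe that was also Cy3-high in stomach. Smug1 was listed by AK045633, 1 of 4 probes, at -1.36 (2.56-fold). Polb was listed by AK047252, 1 of 3 probes, at -1.68 (3.21-fold), a spot that carries the name of a cDNA clone in the files, A430088C08Rik. The listed spots of Smug1 and Polb carry AK accessions, and the RefSeq mRNA probes of these genes were not listed. With at least 50% of a gene's probes required, 3 genes remained (Mbd4, Rev1 and Rpa2), and with RefSeq mRNA probes only, the same count of 3. The share of all genes under these 2 rules is not given here.

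**Figure D4:**
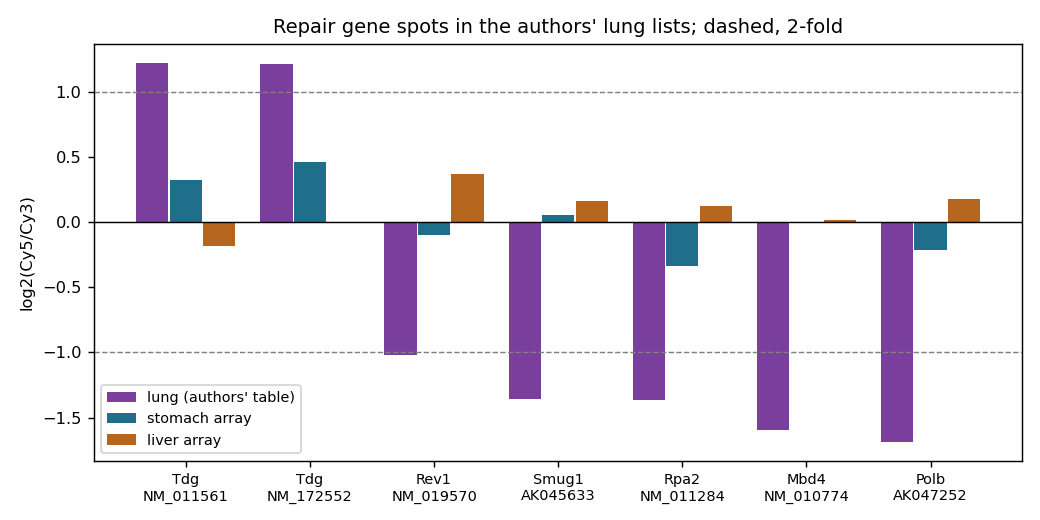
Log2(Cy5/Cy3) of the 7 repair gene spots in the authors' lung lists (purple), beside the same spot on the stomach array (blue) and the liver array (orange) after normexp and loess; bars start at 0 and dashed lines mark 2-fold. Both Tdg spots lie above 1.2 in lung, and the 5 others lie between -1.02 and -1.68 there, with liver and stomach values between -0.34 and 0.37.

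Cell type markers differed widely in the lung lists. Of 10 markers of lung epithelium 8 were listed as lower and none as higher, with Sftpa1 at -4.45, Ager at -3.95 and Lamp3 at -3.85 in the authors' deposited table. Of 10 B cell markers 7 were listed as lower, as were 7 of 10 T cell markers, 8 of 8 endothelial markers and 5 of 8 smooth muscle markers, with none of these listed as higher. Of the squamous epithelium markers 3 of 10 were listed as higher and none as lower, led by Ivl (4.09). Of the gastric gland markers 2 were listed as higher, Tff2 (3.95) and Gkn2 (3.31), and 1 as lower, and of the hepatocyte markers 3 as higher, Apob (1.74), Alb (1.55) and Fgb (1.48), and 1 as lower. Of the macrophage and neutrophil markers 1 of 10 was listed as higher and 1 as lower. Of the 29 cell cycle genes 7 were listed as higher and none as lower, led by Cdk1 (1.73), Rrm2 (1.69) and Tpx2 (1.63). Among the 58 repair partners with a probe, the polymerase epsilon subunit Pole (1.63) and Rfc3 (1.28) were listed as higher, and Fanca (-1.54) and Mre11a (-1.03) as lower. Over all named genes, 6.83% were listed as higher and 12.4% as lower. The part of these cells in the ratios of the repair genes was not tested, and tumour, genotype and animal cannot be told apart in this pair.

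Levels of the same probe on the liver and stomach arrays were set side by side for 59 member probes measured on both, after scaling the arrays to each other. A single member probe was at least 2-fold different in all 4 pairings of channels (1.69%), against 6.94% of 36409 probes. After loess and Aquantile scaling this was the Smug1 probe AK020817, dimmer in stomach by a mean difference of -1.22 on the log2 signal scale (range over pairings -1.30 to -1.14). With that scaling the RefSeq probe of Polb followed, at -0.85 (range -0.87 to -0.83). Other probes of these genes did not share the difference. The other Smug1 probes lay at 0.03, 0.11 and 0.33, and the other Polb probes at -0.14 and 0.04. These differences therefore describe single probes. The highest were Msh6 at 0.84 (range 0.63 to 1.05), Rpa1 at 0.82 (range 0.28 to 1.36) and Rpa3 at 0.79 (range 0.43 to 1.14), brighter on the stomach array in each pairing. Ung lay at -0.23 (range -0.45 to -0.02). The order depended on the scaling. With the scanner software's processed signals 2 member probes passed 2-fold in all pairings (3.39%, against 12.9% of all probes), the same probes of Smug1 and Polb. The means were then -1.49 for that Smug1 probe, -1.20 for 1 probe of Xrcc4, -1.12 for Neil2 and -1.09 for that Polb probe. At the other end Neil3 AK042059 (1.55), Exo1 (1.43), Neil3 NM_146208 (1.42) and Atm AK048970 (1.25) lay above Rpa1 (1.08), Rpa3 (1.03) and Msh6 (0.93). With 1 array per organ, array and organ cannot be told apart.

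**Figure D5:**
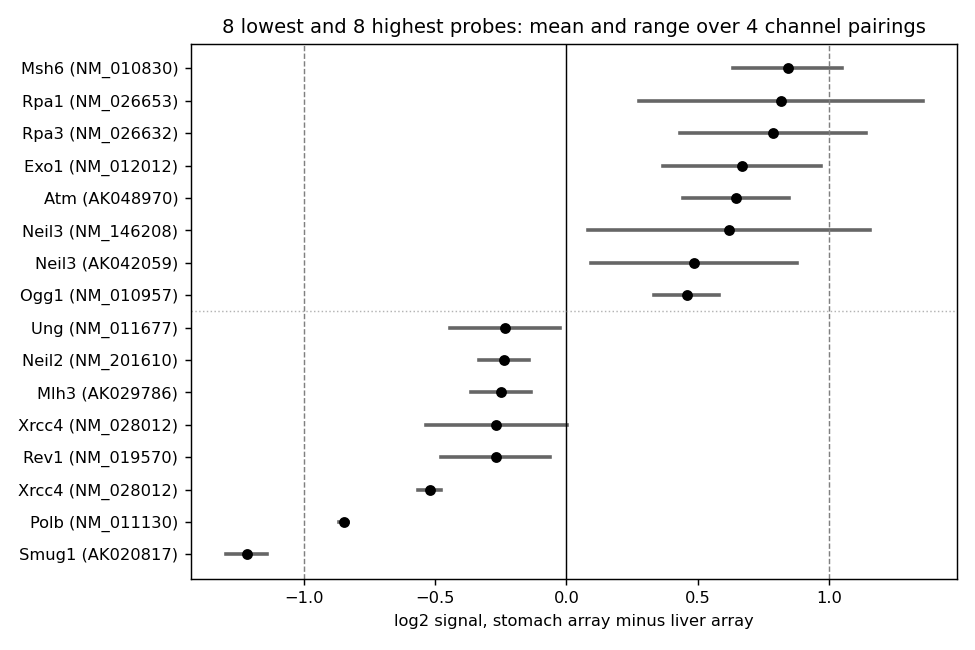
Difference in normalized log2 signal, stomach array minus liver array, for the 8 lowest and the 8 highest of the 59 member probes; points are means over the 4 pairings of channels, lines their range, and dashed lines mark 2-fold. The Smug1 probe AK020817 lies beyond 2-fold over its whole range, from -1.30 to -1.14, and the ranges of Msh6, Rpa1 and Rpa3 lie above 0.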

How the data were processed

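Total RNA (500 ng, Qiagen kit) was amplified, labelled with Cy3 or Cy5 and hybridised to 2-colour arrays, per the labels' protocols; images were quantified in Agilent Feature Extraction 8.5.1.1, per the submitters' processing notes. The authors' deposited intensity columns hold mean spot and median local background intensities without normalization, per the file headers. The deposited log10 ratio is Cy5 over Cy3 after the software's background and dye correction, with a score for its error, per the file headers. The authors' deposited gene lists hold the same log10 ratio; for liver and stomach they equalled the scanner files at the same spot numbers.

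The lung list was joined to the design by spot number. Of the 40 probes printed on several spots, 12 had a lung-listed spot, in 8 of these all spots were listed, and listed spots of a probe never differed in direction (median SD 0.07 against 1.97 over all listed spots).

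Ratios were recomputed with normexp (offset 50) and loess in limma 3.58.1 under R 4.3.3, control spots at weight 0; the step was tested on simulated data. Outlier-flagged and control spots were dropped; a probe was used if 1 channel or both stood well above background and at least 1 was unsaturated. Spots of a probe and then probes of a gene were averaged; levels were scaled between arrays by Aquantile. The offset shrinks the ratios of dim probes. Tables were made in Python 3.11.15 and pandas 2.3.3.

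Names followed a RefSeq table of GRCm38.p6, used for names and promoter windows only: of 41534 gene spots, 23214 were named by accession, 6718 by symbol, 3068 by synonym, and 8534 kept the file's name. All members are named; of the partner genes the 4 highest and 4 lowest per array and those in the lung lists, of the cell cycle genes the 3 highest, and of each marker list at most 3. Members and lists were chosen with earlier results of these data known. Called means past 1.5-fold or 2-fold, or in an authors' list; with 1 array per organ there was no test, and precision is limited by the number of arrays.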

Additional observations from a re-analysis of the deposited data

Results flagged for a closer look

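With the scanner software's ratios, 6 of the 35 measured repair genes (17.1%, against 10.9% of all genes) had opposite signs in liver and stomach and differed by more than the combined scanner error of both arrays. They were picked out because the pairs went opposite ways, and the difference between the organs was not tested, since each organ had 1 array. Only for Rpa1 was the ratio larger than its own scanner error on both arrays. The liver ratios of Tdg, Xrcc1, Msh6 and Rpa3 and the stomach ratio of Rev1 lay within it, so those signs are not settled. Centring on the median gave liver ratios of 0.05 (Tdg), 0.12 (Xrcc1), 0.20 (Msh6) and 0.02 (Rpa3), and 0.11 for Rev1 in stomach. These genes then had the same sign on both arrays. The stomach minus liver difference of log2(Cy5/Cy3) was 1.39 for Rpa1 (combined scanner error 0.48), 0.94 for Rpa3 (0.52), 0.70 for Tdg (0.52), 0.49 for Msh6 (0.30) and 0.43 for Xrcc1 (0.28), and it was -0.62 for Rev1 (0.52). The cell cycle genes, with a median of 0.03 in liver and 0.84 in stomach, also lay further to the Cy5 side in stomach, and their part in these differences was not tested.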

How the results depend on the processing

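With 1 array per organ, no replicate could be left out. No paired analysis was possible because each group had 1 sample and no test was made. Rpa1 and Rpa3, the members at least 1.5-fold in stomach, kept their sign under all 7 alternatives. Smaller ratios did not always: with centring on the median without loess, 10 members in liver and 5 in stomach took the other sign. The count of members at least 1.5-fold Cy5-high in liver was 0 and became 1 with a normexp offset of 10 and 2 with the scanner software's ratio, which also gave 1 Cy3-high. Those Cy5-high members were Neil3 and Mlh3, which had liver probes well above background in Cy5 only. In stomach the Cy5-high count of 2 became 6 with the offset of 10, 9 with the scanner software's ratio and 8 with centring on the median without loess. The count at 2-fold in stomach, 0, became 1, 4 and 1 under the same settings, beside 4.06%, 8.46% and 4.94% of all genes. With the scanner software's processed signals, 8 of 59 brightness differences between the organs moved. The members' stomach median of 0.18 became 0.30 with the scanner software's ratio. Members above 0 in stomach numbered 28 to 30 under the 7 alternatives, and 13 to 19 in liver. Keeping only listed spots of at least 3-fold, the authors' higher lists held 0 members for stomach and 0 for lung, and the lower list for lung held 2. That lower list held 3 when at least 50% of a gene's probes had to be listed, and 3 with RefSeq mRNA probes only, a setting chosen after seeing the data. The share of all genes under these stricter list rules is not given here, so these counts cannot be set against it. The offset acts most on dim probes by construction; the cause of the other shifts was not tested. Dim members, among them Mbd4, Exo1, Neil2 and Brca2, had scanner errors above 0.75 in stomach, which limits what their ratios show.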
